A study of Mus musculus with 32 samples.

Results

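Immediate early genes are switched on within minutes of a stimulus, from promoters that are already poised and without new protein synthesis, and their transcripts decay quickly. Their best known route of induction in tumours runs from growth factor receptors through RAS, RAF, MEK and ERK to ternary complex factors and serum response factor at CArG boxes, with stress kinases and calcium signals as further inputs. Regorafenib is a multikinase inhibitor whose known targets include VEGF receptors, other receptor tyrosine kinases and RAF kinases. The 10 genes followed here were the zinc finger factors Egr1, Egr2 and Egr3, the AP-1 subunits Fos, Fosb, Fosl1, Jun and Junb, and Ier2 and Ier3, whose products are a nuclear regulator and a small protein of stress and survival responses. These 10 of the 54446 genes in the count tables were chosen by name, with the decline of Egr1 at the low dose of regorafenib in 1 experiment in view. That contrast is therefore given as a description without a test.

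Tumours were grown in BALB/c mice from BNL-MEA cells, a murine liver cancer line, injected beneath the capsule of the left liver lobe, and bulk RNA was sequenced in 32 libraries from 3 experiments that the labels call batches. In the dose experiment, vehicle (n = 4) was compared with regorafenib at 5 mg/kg/day, called the low dose (n = 3), and at 20 mg/kg/day, called the high dose (n = 3). In the DC-101 experiment, vehicle (n = 4) was compared with the same low dose (n = 3) and with DC-101, an antibody to mouse VEGFR2 given intraperitoneally at 800 µg on days 1, 3 and 5 (n = 3). In the anti-PD1 experiment, vehicle, the low dose, an antibody to the T cell checkpoint receptor PD1, and the low dose plus that antibody had 3 libraries each. The labels give the extracted tissue as frozen, whereas the methods of the study speak of fresh tumours. Regorafenib was given by gavage, all mice carried the same line, and the age of the mice is not given in the sources used here. Each replicate number marks a separate library, but the labels do not say that each came from its own mouse. The study describes its sequenced samples of regorafenib with anti-PD1 as separate tumours of each group. Elsewhere p-values measure only the spread between libraries, which may be technical.

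Total counts per library were 16767130 to 27693689 (dose experiment), 17936497 to 25489496 (DC-101 experiment) and 20463408 to 25336811 (anti-PD1 experiment). High dose replicate 1 had 5.37% of its counts on mitochondrial genes and a summed level of 10 hepatocyte markers of 92500 CPM (counts per 1000000 counts, after scaling between libraries). In the anti-PD1 experiment, vehicle replicate 2 and low dose replicate 2 had 0.26% and 0.312% of counts on mitochondrial genes, the lowest shares of an experiment that ran up to 2.34%, with the 3 anti-PD1 libraries next at 0.37% to 0.68%. All 10 hepatocyte markers had counts in every library, and whether these came from host hepatocytes or from the liver line was not tested. In bulk RNA, fewer cells of a type cannot be told apart from less RNA per cell.

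Promoter sequence is shown for the members that the RefSeq promoter table holds, because these starts are the DNA that the signalling route above is known to act on. Of the 10 genes, 6 were matched, with 10 annotated windows among them. Coordinates are on GRCm38.p6, each run reads 5′ to 3′ on the strand of the gene, and capitals mark a motif found by a search of both strands of the 250 bases before each start. The printed bases end at the base before the RefSeq start, except that those of Fosb end 7 bases, those of Ier3 30 bases and those of the second window of Egr2 53 bases before it. In Egr2, at chr10:67537466-67537565 (plus strand), the first capitals are a CArG box and the second are the ETS core CCGGAA. In its second window, at chr10:67537787-67537816 (plus strand), the capitals are another CArG box, placed before a start at 67537869. In Fosb, at chr7:19310052-19310151 (minus strand), the capitals are an Egr site, GCGNGGGCG. In Fos, at chr12:85473790-85473889 (plus strand), they are the TATA box TATAAA. The stretches of Jun at chr4:95052223-95052322 (minus strand), Junb at chr8:84978749-84978848 (minus strand) and Ier3 at chr17:35821584-35821683 (plus strand) held none of the motifs searched and are shown for comparison. The search was for fixed letter patterns, and variants of these sites were not sought.
Egr2: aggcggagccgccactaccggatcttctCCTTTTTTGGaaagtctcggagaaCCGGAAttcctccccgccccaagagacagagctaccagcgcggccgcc
Egr2 second window: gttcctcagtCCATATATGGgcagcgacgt
Fosb: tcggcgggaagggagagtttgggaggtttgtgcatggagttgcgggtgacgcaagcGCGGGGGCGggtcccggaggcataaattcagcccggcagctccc
Fos: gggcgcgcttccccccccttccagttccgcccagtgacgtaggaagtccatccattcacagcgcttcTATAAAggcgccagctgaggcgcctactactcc
Jun: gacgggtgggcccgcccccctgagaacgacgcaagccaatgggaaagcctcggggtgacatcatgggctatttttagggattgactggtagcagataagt
Junb: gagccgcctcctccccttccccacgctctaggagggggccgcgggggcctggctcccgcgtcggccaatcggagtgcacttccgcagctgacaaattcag
Ier3: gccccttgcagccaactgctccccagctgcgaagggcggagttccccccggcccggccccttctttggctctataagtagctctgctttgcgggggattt

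Among 32851 promoter windows of the same length in that table, 1.47% held a CArG box, 12% the ETS core CCGGAA, 4.7% the Egr site GCGNGGGCG and 12.4% the TATA box TATAAA. The full cyclic AMP response element TGACGTCA was in 1.55% of windows and the AP-1 site TGANTCA in 6.75%, and neither was in a window of a member. In the Egr2 stretch the CArG box and the ETS core do not overlap. A match of letters is a description of the window and not a bound site.

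Per kilobase of exon, Junb had the highest level of the 10 genes in the 11 vehicle libraries, with a median of 75.3 CPM per kilobase and a range from 53.8 to 142. Jun followed at a median of 36 (15 to 58.8), Ier2 at 34.3 (28.4 to 44.9), Fosl1 at 24.9 (12.7 to 60.9), Egr1 at 22.1 (7.96 to 32.9) and Ier3 at 19.9 (7.51 to 143), all in CPM per kilobase. Fos had a median of 8.23 CPM per kilobase (5.01 to 32.7). The lowest levels were those of Egr2 at 1.38 (0.134 to 2.05), Fosb at 1.34 (0.585 to 1.86) and Egr3 at 0.585 (0.0691 to 1.89). The ranges of neighbours in this order overlapped, except between Fos and Egr2. All 10 genes passed the filter on low counts in each experiment, although the lowest count of a library was 6 for Egr3, 9 for Egr2 and 35 for Fosb. Jun, Junb and Fosl1 overlap Junos, Prdx2 and Ccdc85b on the opposite strand, and because the sources used here do not state which strand was counted, reads of each pair cannot be told apart.

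**Figure D1:**
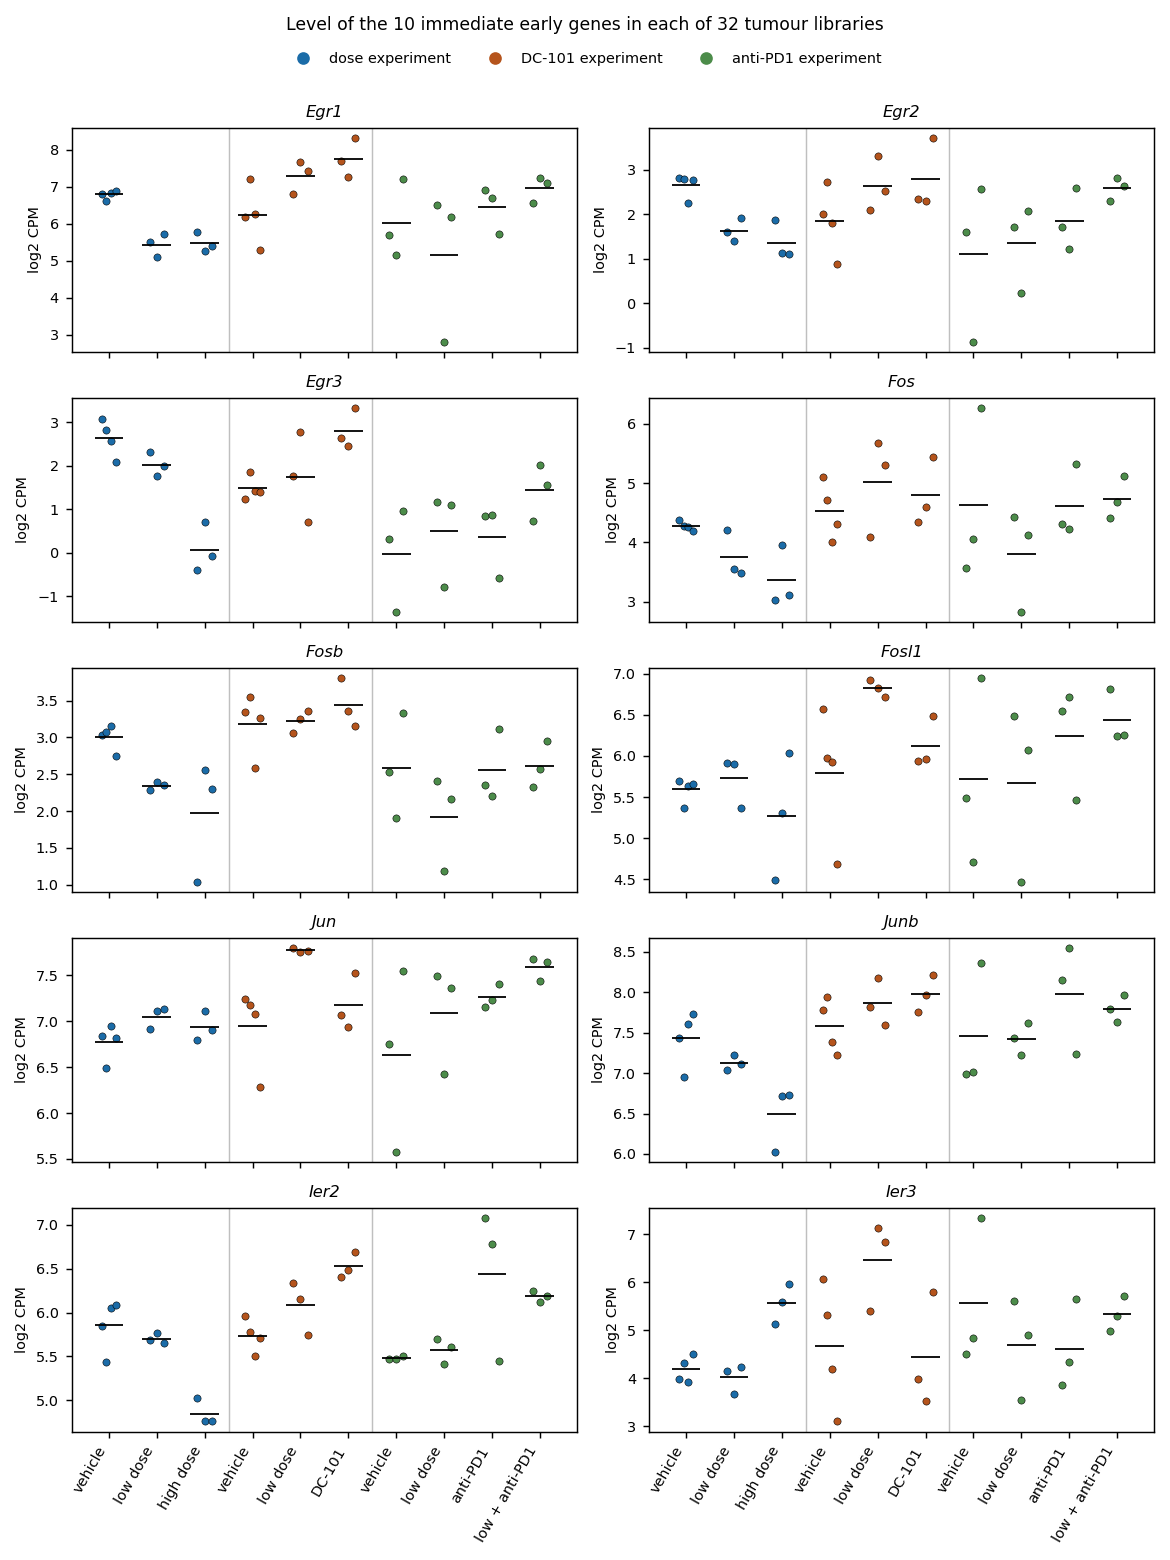
Level of each of the 10 genes in each of the 32 libraries, in log2 CPM, 1 panel per gene, with 1 point per library, colours for the experiment and a line at each group mean. For Egr1 the 4 vehicle libraries of the dose experiment sit together (99.1 to 119 CPM), while the 3 of the anti-PD1 experiment are spread out (35.7 to 147 CPM).

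The 10 genes are protein coding and lie on 9 chromosomes of GRCm38. Egr1 (ENSMUSG00000038418.7) is at chr18:34859823-34864984, Egr2 (ENSMUSG00000037868.15) at chr10:67535475-67542188 and Egr3 (ENSMUSG00000033730.4) at chr14:70077203-70082614. Fos (ENSMUSG00000021250.13) is at chr12:85473890-85477273, Fosb (ENSMUSG00000003545.3) at chr7:19302696-19310051 and Fosl1 (ENSMUSG00000024912.5) at chr19:5447547-5455946. Jun (ENSMUSG00000052684.4) is at chr4:95049034-95052222 and Ier3 (ENSMUSG00000003541.6) at chr17:35821684-35822923. Junb (ENSMUSG00000052837.6, chr8:84974484-84978718) and Ier2 (ENSMUSG00000053560.4, chr8:84661331-84662852) are both on the minus strand of the same chromosome.

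In the dose experiment the low dose was compared with vehicle to ask how these genes stood under regorafenib. Egr1, an early transcriptional response factor, was at 113, 99.1, 114 and 119 CPM in the 4 vehicle libraries and at 45.2, 34.1 and 52.8 CPM in the 3 low dose libraries. All 3 low dose libraries lay below all 4 vehicle libraries. The fitted log2 difference of Egr1, low dose less vehicle, was -1.34 (SE 0.18), which is 0.395 times the vehicle level. Egr2, a relative of Egr1 known for roles in myelination and T cell tolerance, was at 6.95, 6.85, 4.7 and 6.75 CPM in vehicle and at 2.97, 2.55 and 3.69 CPM at the low dose, with a log2 difference of -1.04 (SE 0.29). Fosb, an AP-1 subunit, was at 8.15, 8.34, 8.81 and 6.67 CPM in vehicle and at 4.79, 5.16 and 5.06 CPM at the low dose, with a log2 difference of -0.67 (SE 0.33). In these 3 genes the groups did not overlap, and 6.99% of the 16525 genes in the fit lay lower at the low dose in the same sense.

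The other members overlapped between the low dose and vehicle in the dose experiment. Their log2 differences were -0.65 for Egr3, -0.49 for Fos, -0.33 for Junb, -0.18 for Ier2, -0.15 for Ier3, 0.15 for Fosl1 and 0.27 for Jun, with SE from 0.14 to 0.35. The difference was below 0 for 8 of the 10 genes with a median of -0.41, while over all genes in the fit 49.9% lay below 0 with a median of 0. Since this contrast was in view when the genes were chosen, nothing is read from these counts. Summed macrophage markers were at 2800 to 4640 CPM in vehicle and 5770 to 7500 CPM at the low dose, and summed T cell markers at 12.3 to 24.3 and 25.4 to 33.4 CPM. The part of these cells in the values of the members was not tested.

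At the high dose of the same experiment, 6 of the 10 genes passed an adjusted p of 0.05 in the edgeR quasi-likelihood test over all genes, and 15.6% of the 16525 genes tested did so. Egr1, Egr2, Egr3, Junb and Ier2 fell and Ier3 rose. The 5 that fell are to be read against 6.82% of genes called lower, and the 1 that rose against 8.8% called higher. Before adjustment, 8 of 10 had a p under 0.05, against 40.1% of all genes. The median log2 difference was -0.92 over the 10 genes and 0.02 over all genes tested. The high dose shares its 4 vehicle libraries with the low dose of this experiment, so the lower values at both doses are not separate evidence.

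Of the zinc finger factors, Egr1 was at 54.7, 38.4 and 42.3 CPM in the high dose libraries, all below the vehicle libraries. Its log2 difference from vehicle was -1.30 (SE 0.18, edgeR adjusted p = 0.0156), or 0.405 times the vehicle level. Egr2 was at 3.57, 2.09 and 2.08 CPM, again without overlap, with a log2 difference of -1.29 (SE 0.29, edgeR adjusted p = 0.0361). Egr3, which acts downstream of calcium and growth factor signals, showed the largest difference of the 10 genes. It was at 8.31, 6.97, 5.91 and 4.21 CPM in vehicle and at 0.679, 1.54 and 0.862 CPM at the high dose, where the libraries held 12, 42 and 22 counts. The log2 difference of Egr3 was -2.61 (SE 0.38, edgeR adjusted p = 0.017), or 0.164 times the vehicle level. For comparison, the low dose libraries held Egr3 at 4.93, 3.31 and 3.92 CPM, so the high dose libraries of Egr3 lay below them, whereas the Egr1 values of both doses overlapped. The doses were not tested against each other.

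Among the AP-1 subunits, Junb, which can oppose Jun in cell growth, was at 173, 124, 196 and 212 CPM in vehicle and at 65.1, 105 and 106 CPM at the high dose. The groups did not overlap, and the log2 difference was -0.93 (SE 0.23, edgeR adjusted p = 0.0396). Fos, the partner of Jun in classical AP-1, was at 20.5, 19.4, 19.1 and 18.2 CPM in vehicle and at 8.04, 15.4 and 8.55 CPM at the high dose. Fosb was at 1.98, 5.83 and 4.86 CPM at the high dose. Both lay below vehicle in every library, but their log2 differences of -0.85 for Fos (SE 0.27, edgeR adjusted p = 0.0569) and -0.91 for Fosb (SE 0.34, edgeR adjusted p = 0.0768) did not pass the test. Jun, the main dimer partner of the Fos proteins, was at 115, 89.7, 124 and 113 CPM in vehicle and at log2 CPM of 6.80, 7.11 and 6.90 at the high dose (138 and 119 CPM in replicates 2 and 3), and its log2 difference was 0.16 (SE 0.14, edgeR adjusted p = 0.427). Fosl1, which lacks the transactivation domain of Fos, ran from 22.4 to 65.5 CPM at the high dose around a vehicle range of 41.2 to 51.9 CPM, with a log2 difference of -0.19 (SE 0.31, edgeR adjusted p = 0.674). For Jun and Fosl1 the groups overlapped.

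The Ier genes went opposite ways at the high dose. Ier2 was at 57.7, 43.2, 66.1 and 68.3 CPM in vehicle and at 32.7, 27 and 27 CPM at the high dose, with a log2 difference of -1.03 (SE 0.17, edgeR adjusted p = 0.022). Ier3 was at 15.8, 19.7, 15.1 and 22.5 CPM in vehicle and at 34.8, 48.2 and 62.2 CPM at the high dose, with a log2 difference of 1.41 (SE 0.24, edgeR adjusted p = 0.0228), which is 2.65 times the vehicle level. At the low dose Ier2 (51.7, 54.4 and 50.2 CPM) and Ier3 (17.8, 12.7 and 18.8 CPM) overlapped vehicle. Over the whole list at the high dose, Egr1, Egr2, Egr3, Fos, Fosb, Junb and Ier2 did not overlap vehicle and lay lower, as did 16.6% of all genes, and Ier3 lay higher without overlap, as did 11.8% of all genes.

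**Figure D2:**
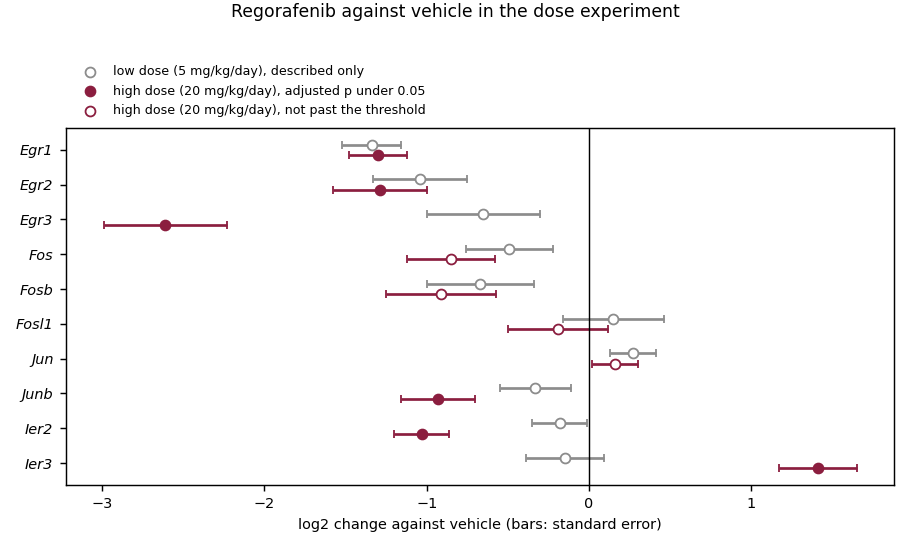
Log2 difference from vehicle (x axis, bars of 1 SE) of each of the 10 genes in the dose experiment, in grey for the low dose, which was not tested, and in red for the high dose, filled where the edgeR adjusted p was under 0.05. The points of both doses lie close together for Egr1 (-1.34 and -1.30) and far apart for Egr3 (-0.65 and -2.61) and Ier3 (-0.15 and 1.41).

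RNA of cell type markers also differed at the high dose, where 6.82% of all genes were called lower, 8.8% were called higher and 40.1% had an unadjusted p under 0.05. Of 10 macrophage markers, 7 fell at the high dose, and their summed level was 978 to 2370 CPM. Of 10 T cell markers 5 rose, with a summed level of 27.1 to 69 CPM, and 2 of 10 endothelial markers fell, with sums of 335 to 571 CPM in vehicle and 187 to 612 CPM at the high dose. Hepatocyte markers summed to 1250 to 7070 CPM in vehicle and to 3180 to 92500 CPM at the high dose. All 10 hepatocyte markers had a log2 difference above 0 (median 3.97) and an unadjusted p under 0.05, and 1 of them, Cyp2e1, passed the edgeR test. With the hepatocyte score as a term in the fit, chosen as an alternative, Egr1 (log2 difference -1.55, edgeR adjusted p = 0.018) and Ier3 (1.44, edgeR adjusted p = 0.0443) passed the test, and Egr2, Egr3, Junb and Ier2 did not, with edgeR adjusted p from 0.0508 to 0.175. The log2 differences of these 4 in that fit were -1.68 for Egr2, -2.36 for Egr3, -0.78 for Junb and -1.11 for Ier2. The fit with the score called 157 of the 16525 genes, against 2582 without it. Without high dose replicate 1, 5 of the 10 genes passed and Junb did not, and calls over all genes went from 2582 to 956. The part of macrophages, T cells and endothelial cells in these values was not tested.

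Calls at the high dose depended on the vehicle libraries. Leaving out vehicle replicate 1 or replicate 3 left 0 of the 10 genes called, without replicate 4 there was 1 and without replicate 2 there were 2, and a fit of only vehicle and high dose called 0. The same vehicle leave-outs took the calls over all genes from 2582 to between 15 and 83. Over fits that each left out 1 vehicle or high dose library, the log2 differences of the called members kept their direction, with Egr1 between -1.44 and -1.19, Egr3 between -3.02 and -2.39, Ier2 between -1.15 and -0.95 and Ier3 between 1.14 and 1.62.

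The listed genes of the same pathway were counted at the high dose in the order of the route, beside 6.82% of all genes called lower and 8.8% called higher in that fit, calls that depend on the vehicle libraries as given above. Of 27 regulators upstream, from RAF kinases to serum response factor and its cofactors, 2 rose and 1 fell with a median log2 difference of -0.11. Araf, a RAF kinase, rose by 0.94 (SE 0.18, edgeR adjusted p = 0.0303). Of 17 genes read as outputs of ERK signalling, 0 rose and 4 fell, with a median of -0.61. These were the ERK and nuclear phosphatase genes Dusp6 (log2 difference -0.75) and Dusp5 (-1.39), the RAF antagonist Spred1 (-0.92) and the ETS factor Etv5 (-1.28), all named after their values were seen. Of 34 other immediate early genes tested, Per1, a clock gene, rose (0.96) and Klf6 and Ier5 fell (-0.78 and -0.99), with a median of -0.02. These 3 too were named after their values were seen.

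Of 22 genes known as targets of Egr or AP-1 factors, 2 rose and 6 fell at the high dose, with a median log2 difference of -0.82. Timp1, an inhibitor of matrix metalloproteinases, fell by 1.49 on the log2 scale (SE 0.19, edgeR adjusted p = 0.0143). Tgfb1, a cytokine of immune suppression and fibrosis, fell by 1.62 (SE 0.25, edgeR adjusted p = 0.0187), and Ereg, a ligand of the EGF receptor, fell by 1.55 (SE 0.27, edgeR adjusted p = 0.0242). Vegfa, the ligand of VEGF receptors, rose by 1.12 (SE 0.17, edgeR adjusted p = 0.0187). Timp1, Tgfb1 and others of the list are also made by macrophages and stromal cells, whose part in these values was not tested.

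In the DC-101 experiment the low dose was given again beside an antibody that blocks VEGFR2, which asks whether the values under regorafenib are shared with VEGFR2 blockade. No member passed the edgeR test in any comparison of this experiment. For the low dose 0 of 10 genes passed, and 4 of 16138 genes, or 0.0248%, did so. At an unadjusted p under 0.05 there were 3 of 10, Fosl1, Jun and Ier2, against 17.1% of all genes. DESeq2 called 1097 of the 16138 genes, among them 1 of the 10, Jun, at an adjusted p of 0.0219, and limma with voom called 0 of the 10. The log2 difference was above 0 for 9 of the 10 genes, with a median of 0.66 against 0.01 over all genes.

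Jun was at 151, 145, 135 and 77.8 CPM in the vehicle libraries of the DC-101 experiment and at 223, 216 and 218 CPM at the low dose. The groups did not overlap, and the log2 difference was 0.78 (SE 0.22, edgeR adjusted p = 0.156). Fosl1 was at 95, 63.2, 60.5 and 25.8 CPM in vehicle and at 122, 113 and 105 CPM at the low dose, again without overlap, with a log2 difference of 0.90 (SE 0.35, edgeR adjusted p = 0.247). These were the only members of the 10 whose low dose libraries all lay above vehicle, which 6.93% of all genes did. Egr1 was at 72.2, 148, 77.2 and 39.3 CPM in vehicle and at 113, 203 and 173 CPM at the low dose. The Egr1 groups overlapped, and the log2 difference of 0.95 (SE 0.42, edgeR adjusted p = 0.294) was above 0, whereas the one in the dose experiment was below 0. Ier3 ran from 8.5 to 67 CPM in vehicle and stood at 42.1, 140 and 114 CPM at the low dose, with a log2 difference of 1.57 (SE 0.79, edgeR adjusted p = 0.34).

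The other members overlapped between the low dose and vehicle in the DC-101 experiment. Egr2 was at 3.95, 6.51, 3.4 and 1.75 CPM in vehicle and at 4.21, 9.92 and 5.65 CPM at the low dose. Fos was at 34.4, 26.3, 16 and 19.7 CPM in vehicle and at 17, 50.7 and 39.5 CPM at the low dose. Their log2 differences were 0.75 for Egr2 (SE 0.52, edgeR adjusted p = 0.454) and 0.57 for Fos (SE 0.42, edgeR adjusted p = 0.488), wide SE for both. Fosb, which lay below vehicle in every low dose library of the dose experiment, was at 10, 11.6, 5.93 and 9.48 CPM in vehicle and at 8.23, 9.42 and 10.2 CPM at the low dose here. Junb ran from 150 to 245 CPM in vehicle and from 193 to 291 CPM at the low dose.

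DC-101 itself was compared with the same 4 vehicle libraries, so its values and those of the low dose are not independent. For DC-101, 0 of 10 genes and 0% of all genes passed the edgeR test. At an unadjusted p under 0.05 there were 3 of 10, Egr1, Egr3 and Ier2, against 13.2% of all genes. DESeq2 called 373 of the 16138 genes, among them 2 of the 10, Egr1 (adjusted p of 0.031) and Ier2 (adjusted p of 0.00143). Of the 10, limma with voom called 0. Egr1 was at 206, 154 and 319 CPM with DC-101, with a log2 difference from vehicle of 1.43 (SE 0.43, edgeR adjusted p = 0.32). Egr3 was at 2.28, 3.53, 2.58 and 2.56 CPM in vehicle and at 6.09, 5.39 and 9.95 CPM with DC-101, with a log2 difference of 1.38 (SE 0.44, edgeR adjusted p = 0.325). Ier2 was at 62.3, 54.9, 45.1 and 52.2 CPM in vehicle and at 84.6 and 89.7 CPM in DC-101 replicates 1 and 2 and a log2 CPM of 6.69 in replicate 3, which was higher still, with a log2 difference of 0.79 (SE 0.16, edgeR adjusted p = 0.309). In these 3 genes the DC-101 libraries all lay above vehicle, as they did for 5.25% of all genes.

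Between the low dose and DC-101, given at different schedules, 0 of 10 genes and 0% of all genes passed the edgeR test, and DESeq2 and limma with voom also called 0 of the 10. Before adjustment, 2 had a p under 0.05, against 8.45% of all genes. Jun was higher at the low dose than with DC-101, at 134, 123 and 183 CPM, by a log2 difference of 0.57 (SE 0.24, edgeR adjusted p = 0.564). Ier2 stood at 81.2, 71.6 and 53.9 CPM at the low dose, with a log2 difference from DC-101 of -0.42 (SE 0.17, edgeR adjusted p = 0.545). Of the pathway lists, 0 genes passed in the DC-101 experiment. For the low dose against vehicle the log2 difference was above 0 for 14 of 17 outputs of ERK signalling (median 0.54), with 5 higher and 0 lower at an unadjusted p under 0.05. It was above 0 for 18 of 22 targets of Egr or AP-1 factors (median 0.91), with 10 higher and 1 lower before adjustment, for 22 of 34 other immediate early genes (median 0.18) and for 10 of 27 regulators (median -0.04). Over all genes 17.1% had an unadjusted p under 0.05 in this comparison, in either direction. For DC-101 the medians of the ERK outputs and of the Egr or AP-1 targets were -0.19 and 0.05. At the same low dose in the anti-PD1 experiment, the log2 difference was above 0 for 9 of 17 ERK outputs (median 0.03). There it was above 0 for 8 of 22 targets of Egr or AP-1 factors (median -0.31). It was above 0 for 7 of 34 other immediate early genes (median -0.4) and 18 of 27 regulators (median 0.14), with 0 listed genes called.

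Summed endothelial markers were at 410 to 706 CPM in vehicle, 276 to 312 CPM at the low dose and 238 to 397 CPM with DC-101. Hepatocyte markers summed to 19.3 to 4820, 1390 to 17200 and 59.5 to 25000 CPM in the same order, neutrophil markers to 35.7 to 195, 55.7 to 381 and 49.7 to 237 CPM, and T cell markers to 7.45 to 52.4, 16.6 to 73.4 and 9.68 to 30.3 CPM. A list of 12 heat shock genes summed to 4420 to 5780 CPM in vehicle, 6170 to 7400 CPM at the low dose, without overlap, and 4600 to 5430 CPM with DC-101. At the low dose the log2 difference was above 0 for 10 of 10 hepatocyte (median 3.16), 12 of 12 heat shock (median 0.65), 9 of 9 tested neutrophil (median 1.53) and 10 of 10 T cell genes (median 0.63). It was above 0 for 1 of 10 endothelial (median -1.49), 2 of 10 macrophage (median -0.17) and 2 of 10 fibroblast genes (median -0.26). Of all these lists 0 genes were called, and the part of these lists in the values of the members was not tested.

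In the anti-PD1 experiment, no member passed the edgeR test in any of the comparisons, and the libraries of a group lay far apart. For Fos the vehicle libraries were at 11.8, 16.5 and 76.9 CPM, for Ier3 at 22.6, 28.3 and 162 CPM and for Egr1 at 51.6, 35.7 and 147 CPM. Vehicle replicate 3 was the highest of its group for all 10 members. The low dose libraries held Egr1 at 91.5, 6.92 and 72.3 CPM, and low dose replicate 2 was the lowest of its group for all 10 members, for example Fos (21.5, 7.03 and 17.4 CPM) and Ier3 (48.3, 11.6 and 29.7 CPM). Vehicle replicate 2 was the lowest of its group for 6 of them. Both are the libraries with the lowest shares of mitochondrial counts given above, and within their groups both had the highest summed macrophage markers (11200 CPM in vehicle replicate 2 and 20800 CPM in low dose replicate 2) and the lowest summed fibroblast markers (6200 and 6130 CPM). The part of RNA quality or of these cells in the values was not tested.

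For the low dose in the anti-PD1 experiment, 0 of 10 genes passed, as did 0% of all genes, and DESeq2 and limma with voom called 0 of the 10. None of the 10 had an unadjusted p under 0.05 (0 of 10), against 11.8% of all genes. The log2 differences were widest for Ier3 at -1.24 (SE 0.76, edgeR adjusted p = 0.575) and Fos at -1.19 (SE 0.66, edgeR adjusted p = 0.524), and that of Egr1 was -0.46 (SE 0.75, edgeR adjusted p = 0.879). Without vehicle replicate 3 the differences of Ier3, Fos and Egr1 were 0.23, 0.12 and 0.38, so their direction rested on that library.

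Jun was at 108, 47.8 and 188 CPM in vehicle and at 180, 86.1 and 164 CPM at the low dose of the anti-PD1 experiment. Fosl1 was at 44.9, 26 and 124 CPM in vehicle and at 89.1, 22.1 and 67 CPM at the low dose. For both the groups overlapped, unlike in the DC-101 experiment, and the log2 differences were 0.33 for Jun (SE 0.42, edgeR adjusted p = 0.834) and -0.13 for Fosl1 (SE 0.60, edgeR adjusted p = 0.964). Junb was at 127, 129 and 328 CPM in vehicle and at 172, 151 and 196 CPM at the low dose. Egr2 and Egr3, the scarcest members with Fosb, went as low as 0.457 and 0.304 CPM, both in vehicle replicate 2.

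Anti-PD1 alone gave 0 of 10 genes and 0% of all genes in the edgeR test. At an unadjusted p under 0.05 there was 1, Ier2, against 13.7% of all genes. DESeq2 called the same gene at an adjusted p of 0.0447, with 614 of the 16615 genes called, while limma with voom called 0 of the 10. Ier2 was at 44.1, 44.2 and 45 CPM in vehicle and at 136, 110 and 43.8 CPM with anti-PD1. Both higher libraries lay far above vehicle and the third lay just below it, and the log2 difference was 1.12 (SE 0.33, edgeR adjusted p = 0.249). The low dose plus anti-PD1 gave 0 of 10 genes and 0% of all genes in the edgeR test, 0 of the 10 with DESeq2 or limma with voom, and 0 of 10 at an unadjusted p under 0.05 against 8.2% of all genes. With that combination Ier2 was at 75.8, 69.5 and 73 CPM, all above vehicle, as were 9.58% of all genes, and its log2 difference from vehicle was 0.71 (SE 0.33, edgeR adjusted p = 0.608). Egr3 had the widest difference there, at 1.15, 0.304 and 1.87 CPM in vehicle and 1.57, 3.98 and 2.87 CPM with the combination, by 1.33 on the log2 scale (SE 0.71, edgeR adjusted p = 0.654).

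Between the combination and anti-PD1 alone, which asks what the low dose added, 0 of 10 genes and 0% of all genes passed the edgeR test, with 0 of the 10 by DESeq2 or limma with voom. None of the 10 had an unadjusted p under 0.05, against 8.68% of all genes. The log2 differences ran from -0.40 for Ier2 (SE 0.32) to 1.06 for Egr3 (SE 0.71). Macrophage markers summed to 5020 to 11200 CPM in vehicle, 4520 to 20800 CPM at the low dose, 6900 to 12100 CPM with anti-PD1 and 6530 to 9060 CPM with the combination. Hepatocyte markers summed to 9080 to 12100 CPM in vehicle, 853 to 4430 CPM at the low dose, 788 to 2610 CPM with anti-PD1 and 3760 to 17500 CPM with the combination. Endothelial markers summed to 289 to 351, 117 to 286, 241 to 289 and 257 to 328 CPM in the same order, T cell markers to 8.68 to 67.1, 30.7 to 61.1, 17.8 to 29.6 and 43.4 to 99.5 CPM, and neutrophil markers to 60.1 to 288, 46.1 to 117, 69 to 86.3 and 74.3 to 137 CPM. The 12 heat shock genes summed to 4100 to 5770 CPM in vehicle, 5640 to 6370 CPM at the low dose, 5510 to 8440 CPM with anti-PD1 and 5880 to 6960 CPM with the combination, which did not overlap vehicle and where the log2 difference was above 0 for 12 of 12 (median 0.80). Both hepatocyte ranges under a single agent lay below vehicle, and those of the combination and anti-PD1 alone did not overlap for hepatocyte or T cell markers. No marker passed the edgeR test in this experiment, and the part of these lists in the values of the members was not tested.

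**Figure D3:**
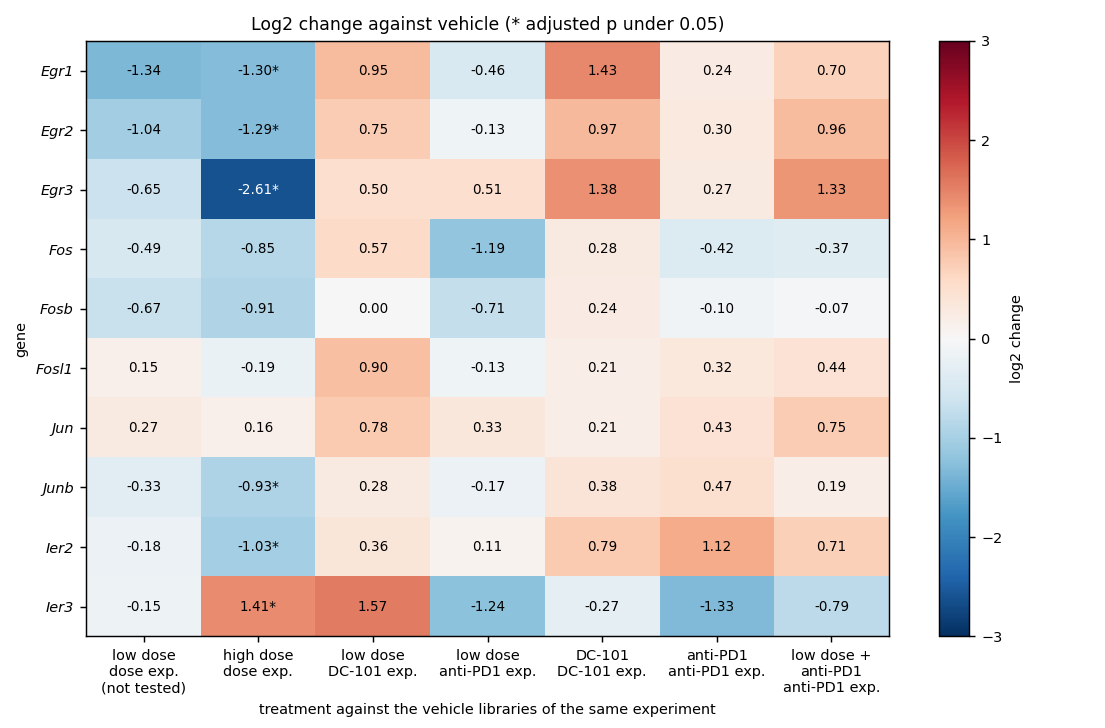
Heat map of the log2 difference of each of the 10 genes (rows) from the vehicle group of its own experiment, 1 column per treatment, blue below 0 and red above it, with an asterisk for an edgeR adjusted p under 0.05. Asterisks stand in the high dose column alone, where Egr3 is lowest at -2.61 and Ier3 carries 1.41, and the low dose of the dose experiment was not tested.

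The low dose was tested across the DC-101 and anti-PD1 experiments together, with the experiment as a term and without the dose experiment. In that fit 0 of 10 genes passed, while 68 of 16731 genes, or 0.406%, did so. At an unadjusted p under 0.05 there were 0 of 10, against 11.2% of all genes, and DESeq2 and limma with voom called 0 of the 10. Jun had a pooled log2 difference of 0.56 (SE 0.29, edgeR adjusted p = 0.523), from 0.78 in the DC-101 and 0.33 in the anti-PD1 experiment. Egr1 had 0.30 (SE 0.55, edgeR adjusted p = 0.907), from 0.95 and -0.46. Of the listed pathway genes, Dusp6, a phosphatase of ERK, rose by 0.75 (SE 0.13, edgeR adjusted p = 0.0321), whereas it fell at the high dose of the dose experiment, a contrast between experiments that was not tested. The endothelial markers Cldn5 and Esam fell by 2.8 and 1.47 on the log2 scale, and the cochaperone gene Dnaja1 rose by 0.87. Calls over all genes in this fit rested on single libraries, with 2 to 74 genes when 1 library was left out, and whether these 4 genes kept their calls was not tested.

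The difference of the low dose change, DC-101 less anti-PD1 experiment, was then tested for each gene. The edgeR test called 0 of 10 genes and 0% of all genes, and DESeq2 and limma with voom called 0 of the 10. At an unadjusted p under 0.05 there was 1, Ier3, against 10.2% of all genes, with a difference of 2.82 on the log2 scale (SE 1.21, edgeR adjusted p = 0.459). The differences of Fos and Egr1 were 1.77 (SE 0.92, edgeR adjusted p = 0.559) and 1.42 (SE 1.06, edgeR adjusted p = 0.747).

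The spread between libraries of a group differed by gene and by experiment. The SD of log2 CPM within groups was 0.23 for Egr1 in the dose experiment, 0.63 beside DC-101 and 1.21 beside anti-PD1. For Ier3 it was 0.33, 1.18 and 1.06 in the same order. Ier2 had the narrowest spread in the DC-101 and anti-PD1 experiments, at 0.22 and 0.44, and Jun had the narrowest in the dose experiment, at 0.17. Over all genes the median SD was 0.37, 0.27 and 0.48. Thus Egr1 varied less than the median gene in the dose experiment and more than it in the other experiments. Its decline in the dose experiment was in view when the genes were chosen, which can favour a narrow spread there. Nothing is therefore read from this contrast of Egr1 between experiments.

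**Figure D4:**
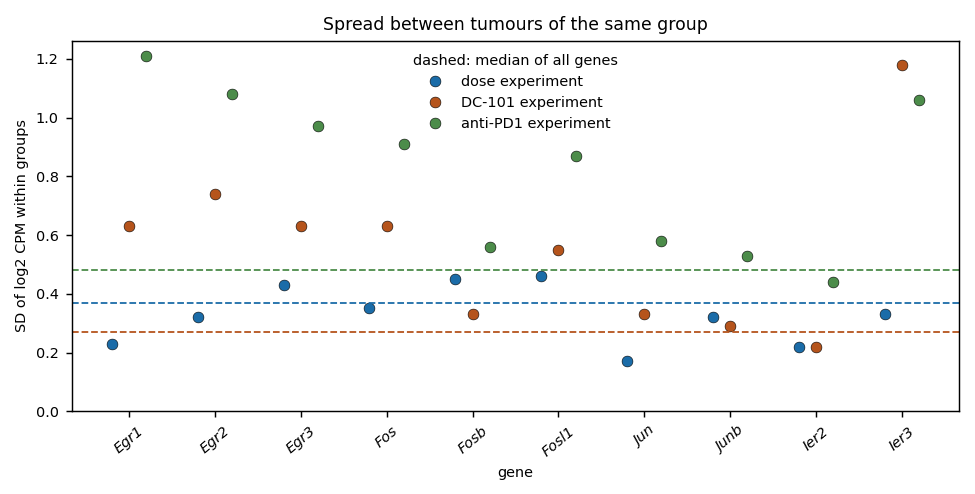
SD of log2 CPM between libraries of the same group for each of the 10 genes, by experiment, with the median over all genes of that experiment as a line. Egr1 stood at 0.23 in the dose experiment and at 1.21 in the anti-PD1 experiment, where the median gene stood at 0.37 and 0.48.

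With each library centred on its own group, Spearman's rho over 32 libraries was above 0 in 44 of the 45 pairs of members, with a median of 0.47 and a range from -0.25 to 0.84. Within single experiments this differed, since rho was above 0 in 25 of 45 pairs in the dose experiment (median 0.03), in 39 beside DC-101 (median 0.52) and in 43 beside anti-PD1 (median 0.59). Fos and Ier3 had the highest rho (0.84), but it was 0.03 within the dose experiment, against 0.82 (DC-101) and 0.94 (anti-PD1). Fosb and Ier2 had the lowest rho (-0.25). The members share libraries, depth and tissue makeup, so these values are descriptions.

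The genes whose pattern was most like the mean of the 10 members, by the same centred rho among 15419 genes tested in all 3 experiments, were Socs3 and Zc3h12a (0.89 each) and Impdh1, Myadm and Ssh1 (0.85 each). Socs3 is a feedback inhibitor of cytokine signalling, Zc3h12a encodes an RNase that degrades inflammatory transcripts, Impdh1 an enzyme of guanine nucleotide synthesis, Myadm a membrane protein and Ssh1 a cofilin phosphatase. Within single experiments rho ran from 0.52 for Socs3 in the dose experiment to 0.94 for Socs3 in the DC-101 experiment. Vehicle replicate 3 of the anti-PD1 experiment was the highest library about its group mean for the members, by 1.09 on the log2 scale, and low dose replicate 2 was the lowest at -0.98. Zc3h12a stood at 1.38 and -1.26 in the same libraries. Levels of these genes over the 32 libraries ran from 39.5 to 199 CPM for Socs3 and from 4.74 to 35.2 CPM for Zc3h12a.

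**Figure D5:**
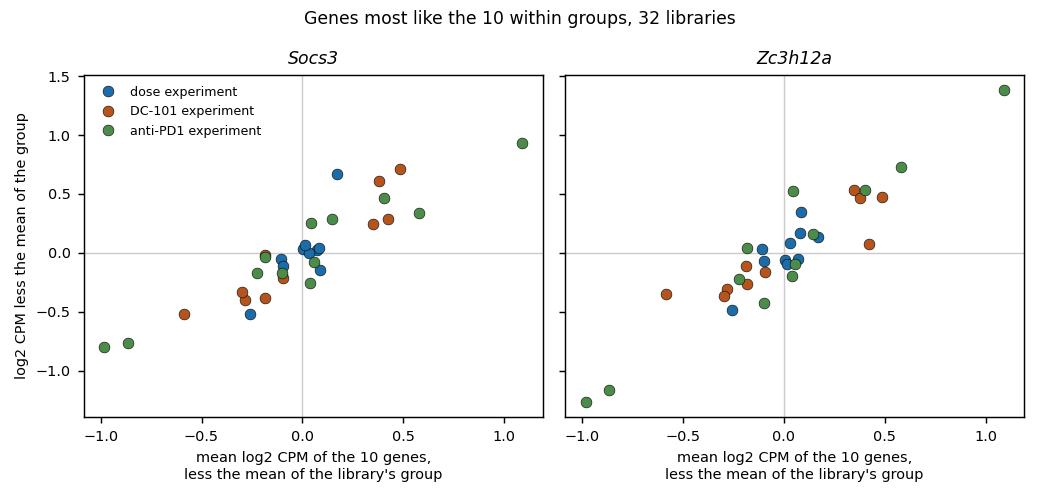
Mean log2 CPM of the 10 members (x axis) against the log2 CPM of Socs3 and of Zc3h12a (y axis, 1 panel each), both centred on the mean of the group of the library, with 1 point per library (n = 32) coloured by experiment. The points farthest from 0 are libraries of the anti-PD1 experiment, at 1.09 and -0.98 on the x axis, and rho is 0.89 in both panels.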

How the data were processed

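The deposited values were whole-number counts per gene, 1 table per experiment. Per the labels and the submitters' processing notes, poly(A) RNA was prepared with a stranded mRNA kit, reads were trimmed with cutadapt 2.4 and aligned with STAR 2.7.2a to GRCm38, and the authors counted reads per gene with a Gencode annotation. Which strand was counted is not given in the sources used here.

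Each experiment was fitted separately in R 4.3.3 with edgeR 4.0.16 (filterByExpr with a minimum count of 10, TMM scaling, robust quasi-likelihood F test, 2-sided, Benjamini-Hochberg adjustment over all genes tested, threshold 0.05), with all groups of an experiment in 1 fit. Vehicle and low dose libraries of the DC-101 and anti-PD1 experiments were also fitted together with the experiment as a term. CPM values are TMM-scaled, and log2 CPM used a prior count of 2. Scripts were tested on simulated data. DESeq2 1.42.0, limma 3.58.1 with voom, other scalings, filters and fits, a replicate block, a hepatocyte score as covariate and leaving out each library were alternatives. Same-numbered libraries deviated together (r above 0.1) in 2 of 9, 4 of 9 and 6 of 18 pairs of the dose, DC-101 and anti-PD1 libraries, so numbers were not taken as pairs. No pair of replicate libraries was alike within sampling noise (chi-square per degree of freedom of at least 14). Gene names came from an annotation match for 54409 of 54446 identifiers.

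The members and gene lists were chosen with earlier results of these data known. Named were all 10 members, up to 3 genes a direction with the smallest p among called genes of 4 pathway lists, and the 5 genes most alike in pattern. Other genes were named after their values were seen, and 1 called gene of these lists is not reported here.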

Additional observations from a re-analysis of the deposited data

Results flagged for a closer look

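Of 20 sets of values in groups of 4 libraries, 2 had a library far from the other 3, where chance gives about 5% of such groups. Vehicle replicate 3 of the dose experiment held Egr2 at 4.7 CPM, and the gap to the nearest library was 0.923 of the range of that group. Vehicle replicate 4 of the DC-101 experiment held Jun at 77.8 CPM, with a gap of 0.83 of the range.

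Over the 10 genes and 3 experiments, 30 pairs of low dose changes were compared. In 4 of them every low dose library of one experiment lay on the opposite side of its vehicle mean from every low dose library of the other. All 4 were between the dose and DC-101 experiments. The log2 difference in the dose experiment less that in the DC-101 experiment was -2.29 for Egr1, -1.79 for Egr2, -0.61 for Junb and -0.54 for Ier2. These differences were not tested, since the low dose of the dose experiment was in view when the genes were chosen.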

How the results depend on the processing

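For the high dose, members called moved from 6 to 8 with DESeq2, 2 with the hepatocyte score, 0 with the replicate block and 0 with only the groups compared, and leaving out 1 library gave 0 to 6. It was 4 with total count scaling, where Ier3 (adjusted p 0.0626) and Junb (0.0772) lost their calls, and 4 with no filter, where Egr2 (0.0579) and Junb (0.0669) did. Genes called moved from 2582 to 5275 with DESeq2, 1349 with limma and voom, 282 with total count scaling (which moved the median gene to -0.13), 416 with no filter on low counts, 157 with the hepatocyte score, 1 with the replicate block and 4 with only the groups compared, and leaving out 1 library gave 15 to 7030. Replicate numbers do not pair these libraries, and the block gave an adjusted p of 0.192 for the called members. Elsewhere, DESeq2 called members as follows where edgeR called 0: 1 for the low dose and 2 for DC-101 in the DC-101 experiment, and 1 for anti-PD1.

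Genes called with DESeq2 were 1097 for the low dose of the DC-101 experiment (4 with edgeR), 373 for DC-101, 203 between the low dose and DC-101, 425 for the low dose of the anti-PD1 experiment, 614 for anti-PD1, 150 for the combination, 210 for the combination against anti-PD1, 465 for the low dose over both experiments (68 with edgeR) and 283 for the difference of the low dose change. With no filter, genes called were 12 for the low dose of the DC-101 experiment, 10 for the low dose of the anti-PD1 experiment and 1 for the combination. With the hepatocyte score they were 0, 9 and 8 in the same order, and 12 over both experiments. The replicate block gave 0 for the low dose of the DC-101 experiment, 4 over both experiments and 1 for the difference, and only the groups compared gave 1 for the first. Leaving out 1 library gave 0 to 0 genes for that low dose and 2 to 74 over both experiments. The cause of these moves was not tested.

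No called member changed direction. Counting a change of sign only where the value moved by more than its SE, 21 values of members did so. Leaving out 1 library gave ranges for the low dose of the anti-PD1 experiment of -0.98 to 0.38 (Egr1), -0.64 to 0.71 (Egr2), -1.64 to 0.12 (Fos), -0.54 to 0.74 (Fosl1), -0.43 to 0.43 (Junb) and -1.77 to 0.23 (Ier3). For anti-PD1 they were -0.87 to 0.89 (Fos), -0.43 to 0.37 (Fosb) and -2.03 to 0.15 (Ier3), and for the combination -0.8 to 0.94 (Fos), -0.34 to 0.40 (Fosb) and -1.23 to 0.69 (Ier3). Fos ran from -0.49 to 0.38 over both experiments, and Junb from -0.17 to 0.68 for the difference. In each, the value that changed sign was the one without anti-PD1 experiment vehicle replicate 3. The other ranges that crossed 0 in this sense were Fosl1 at the high dose (-0.68 to 0.15, the latter without high dose replicate 1), Egr3 at the low dose of the DC-101 experiment (-0.16 to 0.87, the former without low dose replicate 2) and Egr2 between that low dose and DC-101 (-0.64 to 0.41, the latter without DC-101 replicate 3). With the hepatocyte score, Fosl1 was 0.30 at the high dose, Fosb 0.39 at the low dose of the DC-101 experiment, and Egr3 -0.21 and -0.58 for the low dose and anti-PD1. Other values of members kept their sign or moved by less than the SE. The lowest counts of a library were 6 for Egr3 and 9 for Egr2.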
